A study of Mus musculus with 10 samples.

Results

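The genes described here encode 10 ligands of the bone morphogenetic protein (BMP) and growth differentiation factor (GDF) group, or proteins carrying the BMP name: *Bmp1*, *Bmp2*, *Bmp3*, *Bmp4*, *Bmp5*, *Bmp6*, *Bmp7*, *Gdf5*, *Gdf6* and *Gdf10*. They were chosen by name, and all 10 were among the 27267 genes listed in the deposited table. Interscapular brown adipose tissue was taken from male C57BL/6 mice of 4 weeks on a chow diet, from 5 WT mice and from 5 mice labelled as global *Mgp*-KO, in which the gene is lost in every tissue, vessels included, and not only in fat. MGP (matrix Gla protein) is an extracellular protein that binds BMPs, and the comparison asks which transcripts differ in brown fat when it is lost. The values are normalized counts, which are reads counted on a gene divided by a size factor of the library.

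BMPs and GDFs are secreted dimers of the TGF-β superfamily that bind pairs of serine/threonine kinase receptors, which then phosphorylate SMAD transcription factors. Antagonists outside the cell, among them noggin, gremlins and MGP, hold the ligands away from their receptors. In adipose tissue BMPs are known for committing mesenchymal precursors to the fat lineage and, for some members, for promoting the brown adipocyte program.

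The libraries held 9253793 to 22252260 reads counted on genes. *Mgp* was at 466 to 1150 normalized counts in the WT libraries against 0 to 0.821 for *Mgp*-KO 1 to 3. *Mgp*-KO 4 and 5 were at 500 and 331, which goes against their labels. Replicates 4 and 5 also stood apart from replicates 1 to 3 in both groups, with fewer reads and with 6.50% to 16.7% of reads on mitochondrial ribosomal RNA genes against 0.771% to 1.72%. The labels do not say what the numbers stand for, so this difference cannot be told apart from any other between the sets, and the results for the tested ligands are also given within each set. *Xist* was at 5090 normalized counts in WT 2, against 0.754 to 44.0 in the others, which goes against the male label of that library. All 10 brown adipocyte markers were detected in every library. The study's methods give 5 pairs of mice, without saying that equal replicate numbers mark a pair.

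Of the 10 genes, 8 passed the filter of a mean of at least 10 normalized counts for limma, and *Bmp7* and *Gdf6* did not. With limma on log2(normalized count + 1), 0 of these 8 genes were called between the genotypes at an adjusted p under 0.05, where 9 of 13714 genes (0.0656%) were called. Only *Bmp4* had an unadjusted p under 0.05, as did 1421 of all genes. DESeq2 on the recovered reads called 1 of the 10, *Bmp4* (2.26% of 16549 genes called), and edgeR called none of the 8 (0.0219% called). The log2 difference was above 0 for 5 of the 8, with a median of 0.204, against 52.7% and 0.026 over all genes tested. In bulk tissue, fewer cells of a type and less RNA per cell cannot be told apart, and this holds for every difference below.

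Per kilobase of exon, 2 growth factors had the highest means, although in *Mgp*-KO 4 *Gdf5* (19.5) lay below *Gdf10* (29.2) and *Bmp1* (47.6). *Gdf5* was at 209 ± 144 (SD, n = 10) normalized counts per kb and *Bmp6* at 122 ± 26.6, and their order differed between libraries, with *Gdf5* the higher in 6 of 10. *Gdf10* followed at 34.6 ± 11.4 and *Bmp1* at 32.0 ± 9.38, with *Gdf10* the higher in 6 of 10. *Bmp5* was at 13.5 ± 4.22, below *Bmp1* in all 10. *Bmp2* at 8.68 ± 2.10 and *Bmp4* at 8.24 ± 4.72 followed, in an order that differed between the genotypes. *Bmp3* at 2.01 ± 0.970, *Gdf6* at 0.919 ± 0.661 and *Bmp7* at 0.887 ± 0.868 closed the order, the last pair again not separated. Transcripts of *Gdf5*, *Bmp6* and *Gdf10* together made up 78.9% to 94.9% of the summed level of the 9 growth factor genes in each library.

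**Figure D1:**
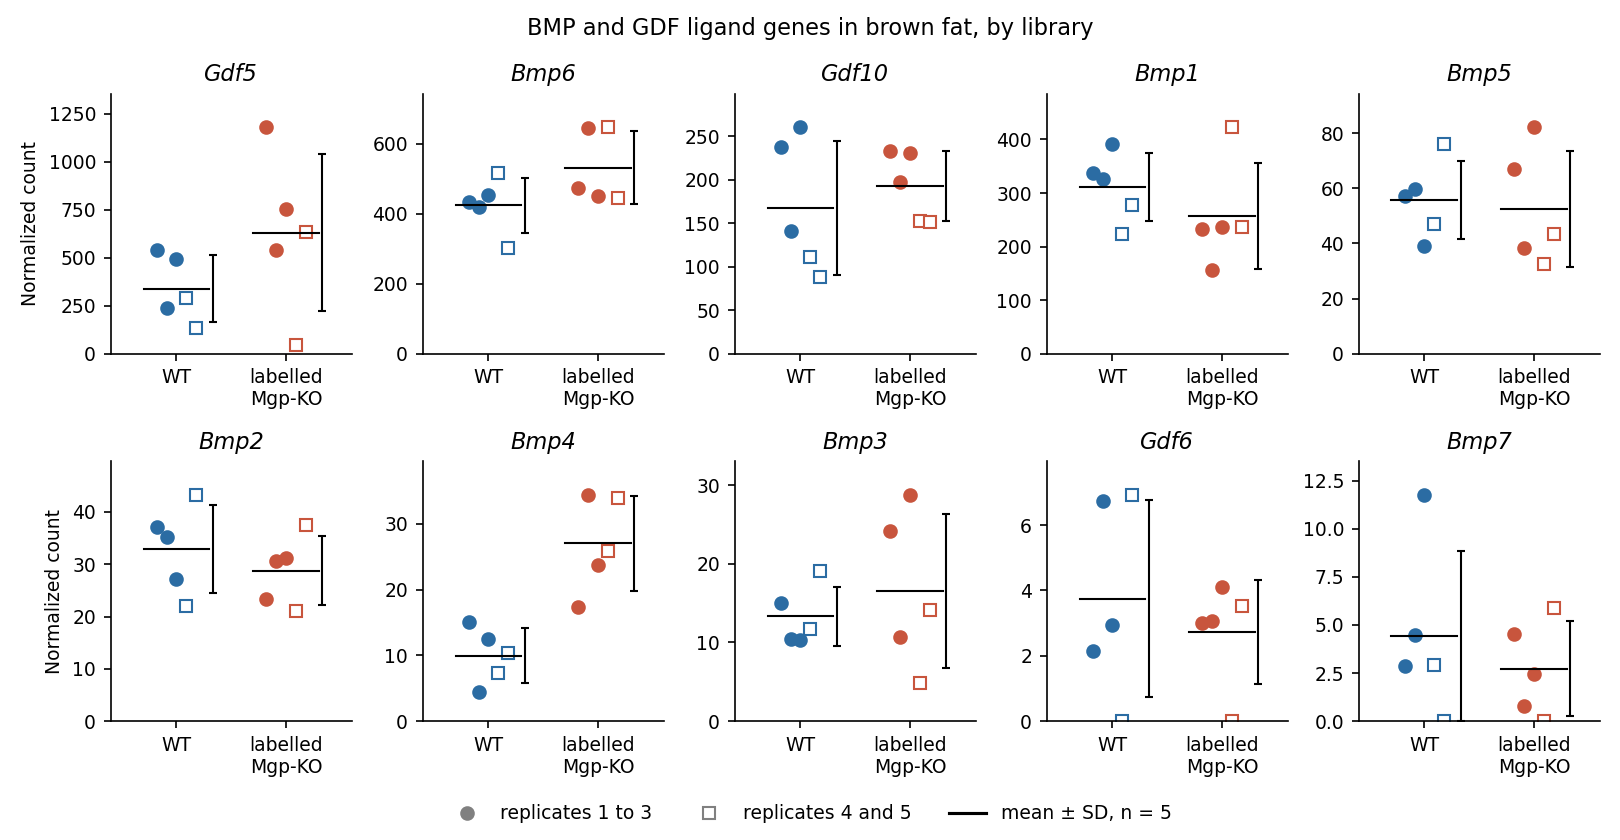
Normalized counts (vertical axes, each from 0) of the 10 ligand genes in each library, ordered by level per kb. Filled circles are replicates 1 to 3, open squares replicates 4 and 5, and lines the mean ± SD of 5 libraries. Only the panel of *Bmp4* has groups that do not overlap (at most 15.0 in WT, at least 17.3 in the labelled *Mgp*-KO), and *Gdf10* is lower in the squares than in most circles.

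*Bmp4* (chr14:46383520-46390669, minus strand, GRCm38/mm10) encodes a ligand known for driving mesenchymal stem cells towards the adipocyte lineage. It was at 15.0, 4.49, 12.5, 7.33 and 10.4 normalized counts in WT 1 to 5, while *Mgp*-KO 1 to 5 held 17.3, 34.4, 23.8, 25.9 and 34.0. Every library labelled *Mgp*-KO was above every WT library, 4 and 5 included, although those had *Mgp* reads. The means were 9.94 ± 4.16 and 27.1 ± 7.23 (SD, n = 5 each), a 2.72-fold ratio. Groups that do not overlap always give the smallest p that 5 against 5 libraries allow (p = 0.00794, two-sided exact permutation test, not adjusted). This p therefore adds nothing to the separation. Over all tested genes 190 (1.39%) were likewise higher in the labelled *Mgp*-KO without overlap, 2.11% were lower in that way and 3.5% either. Among the 8 tested members *Bmp4* was the only one of either kind.

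The difference of *Bmp4* on the log2 scale was 1.41 (SE 0.39, 95% interval 0.563 to 2.27), and limma gave an adjusted p of 0.203, so it was not called. A term for the 2 sets in limma left the adjusted p at 0.0738. The WT mean lies just under the filter of 10, so that *Bmp4* entered these fits through the labelled *Mgp*-KO libraries, and without a filter the adjusted p was 0.396, and 0.148 with the set term. In the replicate block fit it was 0.121 (1.97% called, 0 members). DESeq2 called *Bmp4* at an adjusted p of 0.0428, and again when the sets were modelled, at 0.0199 (7.42% of 15533 genes called). Within replicates 1 to 3 DESeq2 did not call it (log2 difference 1.23, adjusted p = 0.159). Within replicates 1 to 3 the ratio was 2.36-fold and within replicates 4 and 5 it was 3.38-fold, with adjusted p of 0.182 and 0.679 in limma. The groups did not overlap in either set, which was so for 30.6% of all tested genes within replicates 1 to 3 (3 of the 8 members, *Bmp1*, *Bmp4* and *Gdf5*) and for 41.6% within replicates 4 and 5 (3 of the 8, *Bmp4*, *Bmp5* and *Gdf10*). Since the groups did not overlap over all libraries, subsets and alternatives could hardly turn the direction, and its sameness adds no support. Over the 24 alternatives that could be run, adjusted p of limma, edgeR and DESeq2 ran from 0.0199 to 0.679. Leaving out single libraries gave log2 differences of 1.19 to 1.58. The smallest (limma adjusted p = 0.393) was without WT 2, the library whose *Xist* goes against its label.

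These counts rest on few reads. *Bmp4* had 21, 6, 17, 5 and 6 reads in WT 1 to 5 and 23, 45, 29, 16 and 29 in *Mgp*-KO 1 to 5. The Poisson intervals (95%, counting error only) of WT 1, 9.30 to 23.0, and *Mgp*-KO 1, 11.0 to 26.0, overlap. So do those of WT 3 (7.28 to 20.0) and *Mgp*-KO 3 (15.9 to 34.2). Those of WT 4 (2.38 to 17.1) and *Mgp*-KO 4 (14.8 to 42.1) overlap as well, while replicates 2 and 5 do not. The interval of WT 1 also overlaps those of *Mgp*-KO 3, 4 and 5. Of the genes that mark endothelial cells, 10 of 10 had a log2 difference above 0 (median 0.423, 0.221 in replicates 1 to 3 and 0.880 in 4 and 5) and none was called. Their summed level was 19270 to 32290 in WT and 22580 to 59960 in the labelled *Mgp*-KO, where *Mgp*-KO 4 alone lay above 30800, with none of the 10 at 0 in any library, and their part in the *Bmp4* difference was not tested. The skeletal muscle markers reached 32100 and 36200 in *Mgp*-KO 2 and 5, the pair with the highest *Bmp4*, against 40.2 to 322 in the other 3 of that group. In WT 1 to 5 they were at 48.6, 42.7, 6160, 1390 and 4280. The brown adipocyte markers had 1 of 10 log2 differences above 0 (median -0.526, -0.681 in replicates 1 to 3 and -0.579 in 4 and 5). With a set term in limma 3 were called lower, where 2.36% of all genes were called, and the sums were 212500 to 410700 in WT and 148800 to 300200 in the labelled *Mgp*-KO. Of the Schwann cell markers 2 of 10 had a log2 difference above 0 (median -0.438, -0.793 in replicates 1 to 3 and -0.00974 in 4 and 5), 1 was called lower with the set term, and the sums were 3241 to 4616 and 1782 to 4306. Of the progenitor markers 4 of 11 were above 0 (median -0.304, -0.389 in replicates 1 to 3 and -0.286 in 4 and 5), none was called, and the sums were 17440 to 49440 and 12650 to 29660. The part of these markers was not tested either.

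**Figure D2:**
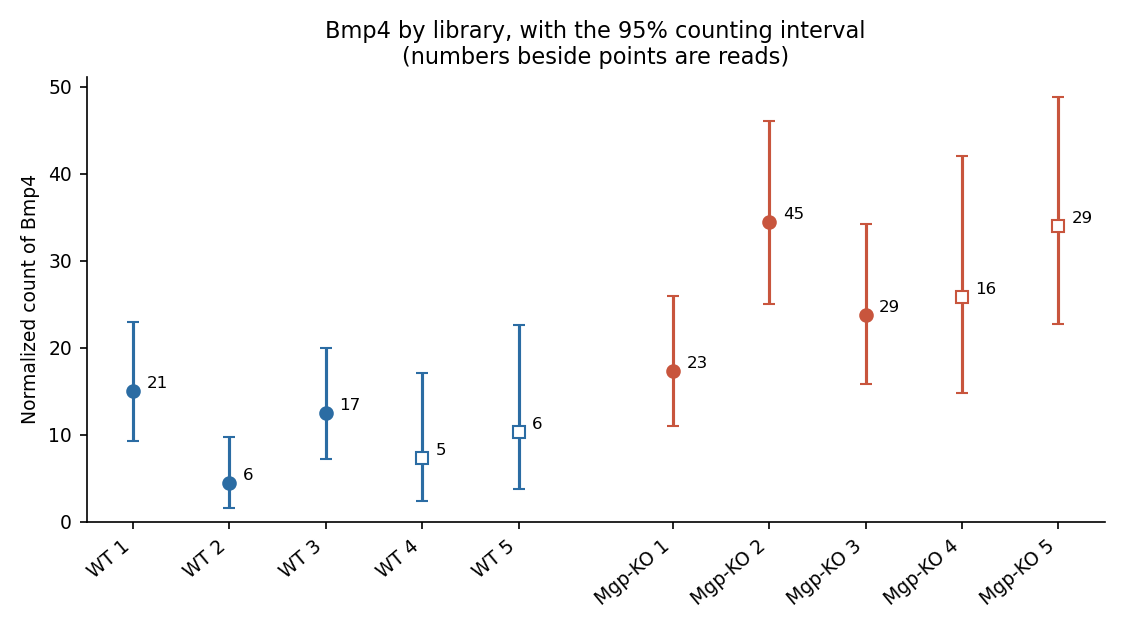
Normalized counts of *Bmp4* (vertical axis) in each library, with 95% Poisson intervals of the counting error as bars and the reads behind each point printed beside it. Circles are replicates 1 to 3 and squares replicates 4 and 5. The WT points lie between 4.49 and 15.0 and the labelled *Mgp*-KO points between 17.3 and 34.4. Between libraries of equal number, the intervals overlap for replicates 1, 3 and 4 and not for replicates 2 and 5.

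The RefSeq promoter window of *Bmp4* (chr14:46390620-46390919, GRCm38.p6, reverse strand, 250 bases before to 50 after the start) is shown because this gene had the largest ratio between the groups among the tested members, with the GC box in capitals.

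Bmp4: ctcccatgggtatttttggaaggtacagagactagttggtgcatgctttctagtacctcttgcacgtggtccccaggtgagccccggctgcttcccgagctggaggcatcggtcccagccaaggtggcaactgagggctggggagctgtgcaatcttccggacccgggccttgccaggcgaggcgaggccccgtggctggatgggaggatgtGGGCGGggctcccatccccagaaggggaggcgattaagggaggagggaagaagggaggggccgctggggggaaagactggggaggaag

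The GC box (GGGCGG, or CCGCCC when read on the other strand) is a motif known to be bound by the SP family of factors. Its copy here begins at position -38 from the start, and 35.7% of all 32851 promoter windows of this length hold at least 1. The window has a GC content of 64.0%, against a median of 52.7%. It holds 1 E-box (CACGTG), present in 7.15% of windows, and no TATA box (TATAAA, 13.6% of windows) or CCAAT box (CCAAT, 37.4%, both strands searched for each). These matches are a description of letters.

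*Bmp2* (chr2:133552159-133562885, plus strand) encodes the closest relative of BMP4. It was at 37.2, 35.2, 27.2, 22.0 and 43.3 normalized counts in WT 1 to 5 and at 23.4, 30.6, 31.2, 21.0 and 37.5 in *Mgp*-KO 1 to 5. The groups overlapped almost fully, and the difference of -0.18 (SE 0.29, limma adjusted p = 0.869) has an interval of -0.809 to 0.443. The sets gave -0.22 (1 to 3) and -0.13 (4 and 5). Corrected for exon length, *Bmp2* was at 9.27 ± 2.36 per kb and *Bmp4* at 4.42 ± 1.85 per kb in WT, and *Bmp2* was the higher in 5 of 5 libraries. In the labelled *Mgp*-KO they were at 8.09 ± 1.86 and 12.1 ± 3.21 per kb, and *Bmp4* was the higher in 5 of 5. This reversal of order rests on the change in *Bmp4* and on the annotated exon lengths of 3555 and 2248 bases, and it was not tested apart from that change. In reads, without the length correction, *Bmp2* was above *Bmp4* in *Mgp*-KO 1, 3 and 5 (31, 38 and 32 against 23, 29 and 29). It was below *Bmp4* in *Mgp*-KO 2 and 4 (40 and 13 against 45 and 16).

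*Gdf5* (chr2:155941023-155945367, minus strand) is best known for the formation of joints. It was at 541, 237, 493, 289 and 132 normalized counts in WT 1 to 5 and at 1180, 541, 755, 45.3 and 632 in *Mgp*-KO 1 to 5. It varied more than any other tested member, 26.0-fold between the highest library, *Mgp*-KO 1, and the lowest, *Mgp*-KO 4. It had 28 to 1564 reads per library, and the spread around the group means was 81.0 times counting error in WT and 216 times in the labelled *Mgp*-KO (chi-square per degree of freedom).

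Across all libraries the difference of *Gdf5* was 0.51 (SE 0.76, adjusted p = 0.862 in limma), with an interval of -1.14 to 2.16. Within replicates 1 to 3 no library labelled *Mgp*-KO was below a WT library, although WT 1 and *Mgp*-KO 2 met at 541. There the ratio was 1.95-fold, with a log2 difference of 0.97 (limma adjusted p = 0.190, DESeq2 adjusted p = 0.0586). Within replicates 4 and 5 the log2 difference was -0.19 (limma adjusted p = 0.966), since *Mgp*-KO 4 and 5 lay at opposite ends. The mean counts of that set ran the other way, at 210 in WT and 339 in the labelled *Mgp*-KO, a 1.61-fold ratio. Without *Mgp*-KO 4 the difference was 1.31, with an adjusted p of 0.187 in limma, and without *Mgp*-KO 1 it was 0.14, so its size rested on single libraries. The annotation places 936 exon bases of *Gdf5* (40.3% of its length) under *Gm15557* on the opposite strand, and the strand setting of the counting is not given in the sources used here. *Gm15557* itself was at 0 to 20.5 normalized counts.

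*Bmp6* (chr13:38345107-38500302, plus strand) encodes the ligand through which liver endothelium sets hepcidin and iron balance. It was at 432, 418, 453, 514 and 301 normalized counts in WT 1 to 5 and at 473, 645, 450, 646 and 443 in *Mgp*-KO 1 to 5. It was the steadiest of the abundant members, with 2.15-fold between extremes. The difference was 0.33 (SE 0.20, limma adjusted p = 0.605) and its interval of -0.105 to 0.756 ends below a difference of 1 on the log2 scale. The sets gave 0.25 (replicates 1 to 3) and 0.44 (replicates 4 and 5), and it was above 0 in all 25 alternatives, none of which called it. A stretch of 224 exon bases (5.74%) is shared with *Txndc5* on the opposite strand, which was at 335 to 1020 normalized counts, so that reads of the pair may be shared there if strand was not used.

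*Bmp5* (chr9:75775364-75900310, plus strand) belongs to the same subgroup as *Bmp6* and *Bmp7*. It was at 57.2, 59.9, 39.0, 46.9 and 76.1 normalized counts in WT 1 to 5 and at 67.1, 38.2, 82.1, 32.4 and 43.4 in *Mgp*-KO 1 to 5. Its difference of -0.13 (SE 0.30, limma adjusted p = 0.917) changed sign between the sets, being 0.22 in replicates 1 to 3 and -0.66 in 4 and 5. *Gm26903* covers 46.7% of its exon bases on the opposite strand, with 4 reads in all libraries together.

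*Bmp7* (chr2:172868012-172940321, minus strand) encodes the member known for promoting brown adipocyte differentiation, yet it was near the detection limit in this brown fat. It had 4, 6, 16, 2 and 0 reads in WT 1 to 5 and 6, 1, 3, 0 and 5 in *Mgp*-KO 1 to 5, or 43 in all. The count of 0 allows up to 3 reads, which is 5.19 normalized counts in WT 5 and 4.86 in *Mgp*-KO 4. The highest value, 11.8 normalized counts in WT 3, stood apart from the rest, which were at 5.86 or below. Means were 4.41 ± 4.42 and 2.72 ± 2.47 normalized counts (n = 5 each, p = 0.556, two-sided exact permutation test), and a difference was not detectable at this depth (DESeq2 adjusted p = 0.824). The WT and labelled *Mgp*-KO means were 6.37 and 2.58 in replicates 1 to 3, and 1.47 and 2.93 in replicates 4 and 5.

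*Gdf6* (chr4:9844372-9862345, plus strand), a relative of *Gdf5* with roles in joints and the skeleton, was equally scarce. Its reads were 3, 9, 4, 0 and 4 in WT 1 to 5 and 4, 4, 5, 0 and 3 in *Mgp*-KO 1 to 5. Means were 3.75 ± 3.01 and 2.74 ± 1.59 normalized counts (n = 5 each, p = 0.571, two-sided exact permutation test; DESeq2 adjusted p = 0.914), with 3.94 and 3.39 in replicates 1 to 3 and 3.46 and 1.76 in 4 and 5. Neither gene showed values over the floor in more than 6 libraries.

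*Gdf10* (chr14:33923587-33937983, plus strand), also called BMP3B, encodes a divergent ligand. It was at 238, 141, 260, 111 and 88.3 normalized counts in WT 1 to 5 and at 234, 197, 231, 152 and 151 in *Mgp*-KO 1 to 5. The genotypes overlapped, with a difference of 0.30 (SE 0.31, adjusted p = 0.792 in limma, interval -0.372 to 0.973). The sets gave 0.09 (1 to 3) and 0.61 (4 and 5).

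*Gdf10* and *Gdf5* had the largest differences between the sets among the tested members. With genotype in the model *Gdf10* was lower in replicates 4 and 5 than in replicates 1 to 3, with means of 126 and 217 normalized counts and a log2 difference of -0.79 (SE 0.20, adjusted p = 0.0103 in limma). The call was kept in all 18 alternatives, with adjusted p of 0.00249 to 0.0322. It was the only member called, 1 of 8, where 38.2% of all tested genes were called in this contrast. *Gdf5* had the larger difference, -1.61 (SE 0.62, adjusted p = 0.0589 in limma), with means of 274 and 624, and was called in 4 of the alternatives. Without *Mgp*-KO 4 it was -0.75 (adjusted p = 0.121 in limma) and without *Mgp*-KO 5 it was -2.20 (adjusted p = 0.0143). For the other 6 it was between -0.40 and 0.08. Depth and the share of mitochondrial ribosomal RNA differ between these sets in every library, and cannot be told apart from the set.

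The promoter window of *Gdf10* (chr14:33923337-33923636, GRCm38.p6, forward strand) is shown because the gene was called between the sets, with GC boxes in capitals.

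Gdf10: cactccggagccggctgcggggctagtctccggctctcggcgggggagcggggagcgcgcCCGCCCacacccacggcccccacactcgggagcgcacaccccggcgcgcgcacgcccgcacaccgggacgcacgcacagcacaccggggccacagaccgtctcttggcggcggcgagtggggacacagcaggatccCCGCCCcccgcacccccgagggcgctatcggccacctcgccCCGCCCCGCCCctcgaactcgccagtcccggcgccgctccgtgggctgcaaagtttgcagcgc

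It holds 4 GC boxes, of which the 2 nearest the start overlap by 1 base, and a GC content of 77.3%. It also has 1 copy of GGCGCC, an element known to be bound by SMADs, which 11.9% of all windows hold. RefSeq windows were matched for 4 of the 10 genes, and those of *Bmp6* (69.3% GC, 1 GC box) and *Bmp5* (43.3% GC, none of the motifs) lay on either side of *Bmp4*.

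*Bmp3* (chr5:98854415-98884396, plus strand), a relative of *Gdf10* known for restraining bone formation, was at 15.0, 10.5, 10.3, 11.7 and 19.0 normalized counts in WT 1 to 5 and at 24.1, 10.7, 28.7, 4.86 and 14.1 in *Mgp*-KO 1 to 5. The WT libraries varied no more than counting error, with a chi-square per degree of freedom of 0.902, and the labelled *Mgp*-KO libraries varied 5.26 times as much as counting error. Its difference was 0.11 (SE 0.48, limma adjusted p = 0.963), and the sets gave 0.69 (1 to 3) and -0.77 (4 and 5).

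*Bmp1* (chr14:70474558-70520234, minus strand) is not a growth factor but a metalloprotease of the tolloid family that trims procollagens and frees BMPs from the antagonist chordin. It was at 337, 326, 392, 224 and 277 normalized counts in WT 1 to 5 and at 234, 157, 236, 422 and 237 in *Mgp*-KO 1 to 5. Among replicates 1 to 3 every labelled *Mgp*-KO library was below every WT library, and *Mgp*-KO 4 was the highest of all 10. The means of replicates 1 to 3 differed 1.69-fold, with a log2 difference of -0.77 (SE 0.19). Limma gave it an adjusted p of 0.0748 (3.54% of genes called, 0 of the 8 members), and DESeq2 on the same 6 libraries called it, with an adjusted p of 0.0102 (8.83% of genes called). In replicates 4 and 5 the difference was 0.34 (limma adjusted p = 0.782; 0% of genes called), and over all libraries -0.32 (SE 0.26, limma adjusted p = 0.705).

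The difference of the *Bmp1* effect between the sets was 1.11 (SE 0.40), with an unadjusted p of 0.0182 and an adjusted p of 0.455 in limma, so it was not called. It was the only member of 8 with an unadjusted p under 0.05 in that interaction, against 1419 of 13714 genes, of which 1 (0.00729%) was called. The sign of the genotype difference on the log2 scale was opposite in the sets for 4 of the 8 (*Bmp1*, *Bmp3*, *Bmp5* and *Gdf5*). For *Gdf5* this held on that scale only, since its mean counts were higher in the labelled *Mgp*-KO in both sets.

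**Figure D3:**
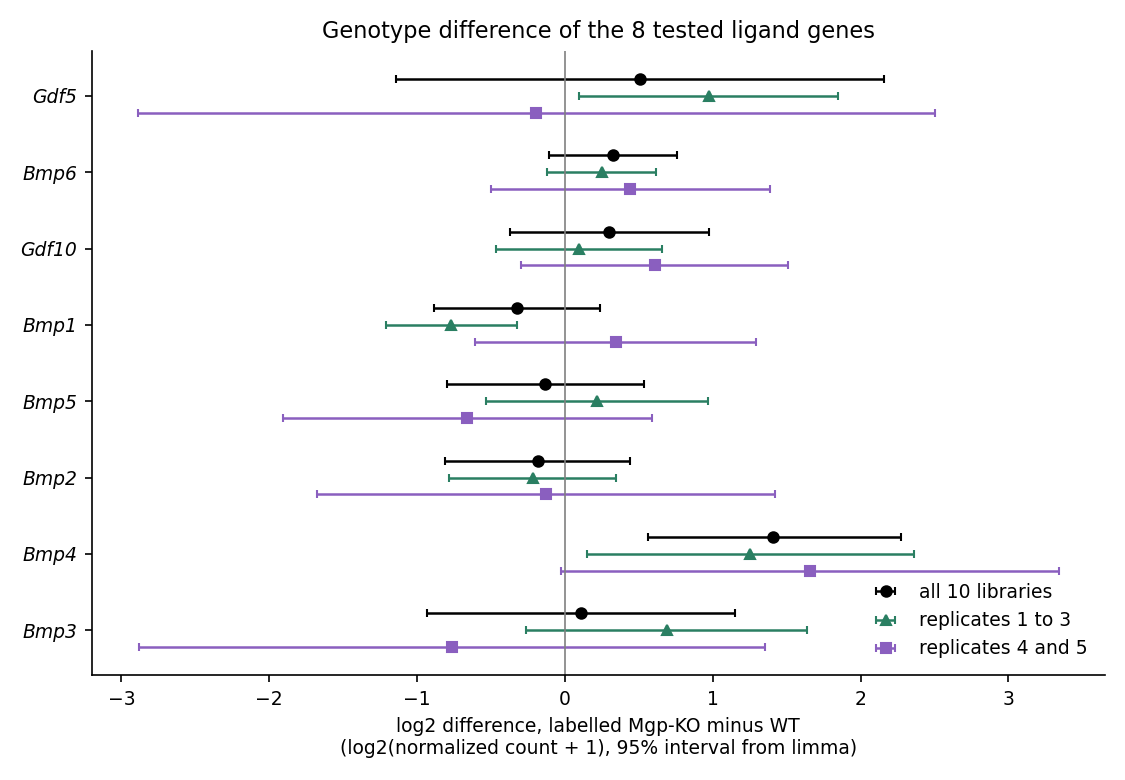
Difference in log2(normalized count + 1), labelled *Mgp*-KO minus WT, of the 8 tested ligand genes (horizontal axis), over all 10 libraries, within replicates 1 to 3 and within replicates 4 and 5, with 95% intervals from limma. Of the 8 intervals over all libraries only that of *Bmp4*, 0.563 to 2.27, lies apart from 0, and the marks of *Bmp1* fall on opposite sides in the 2 sets.

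The summed level of the 9 growth factor genes, *Bmp1* left out, was 191 to 424 normalized counts per kb in WT (median 301) and 240 to 710 in the labelled *Mgp*-KO (median 472). The range came mostly from *Gdf5*, whose share was 8.12% in *Mgp*-KO 4 and 71.5% in *Mgp*-KO 1. Without *Gdf5* the sums were 134 to 194 and 183 to 239, and most of them came from *Bmp6*, which was not called. *Bmp4* made up 0.747% to 2.42% of the sum in WT and 1.09% to 4.79% in the labelled *Mgp*-KO, so that the gene with the largest ratio between the groups was a small part of the ligand transcripts.

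**Figure D4:**
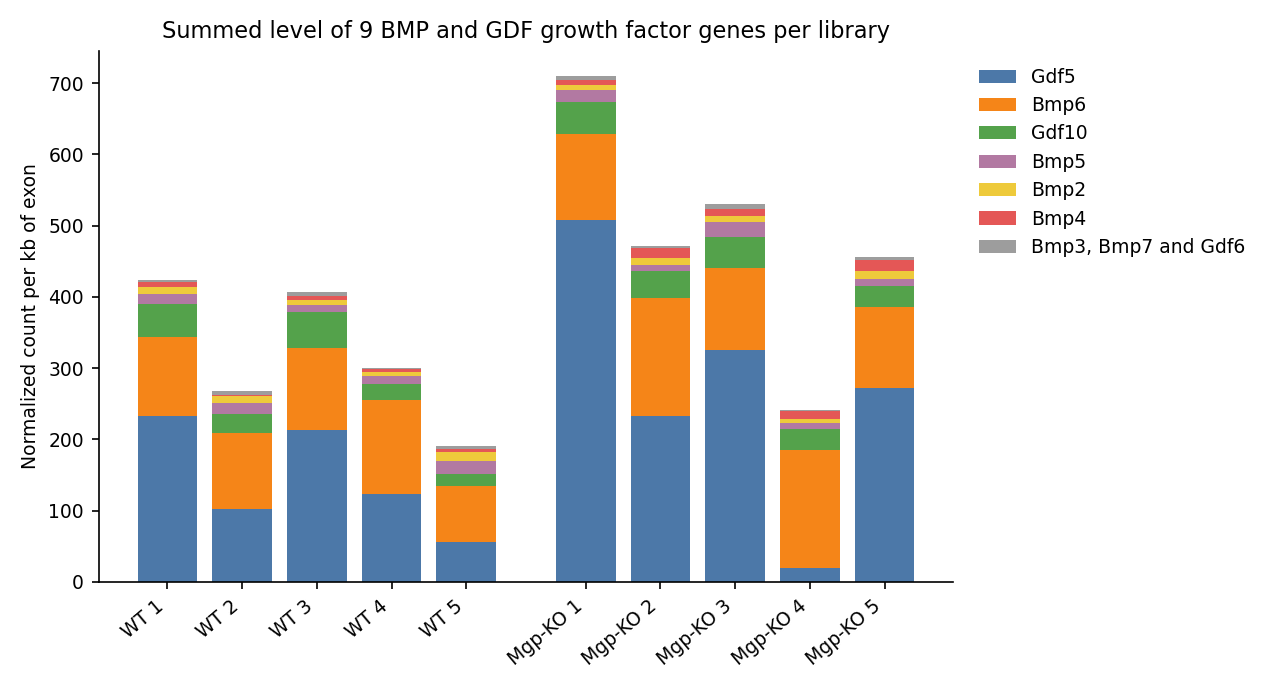
Normalized counts per kb of exon (vertical axis, from 0) of 9 growth factor genes, stacked for each library. *Gdf5* (bottom) and *Bmp6* fill most of every bar, and the totals run from 191 in WT 5 to 710 in *Mgp*-KO 1.

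Of 13 further ligands of the family, 9 were listed and only *Gdf11* passed the filter, at 48.1 ± 11.6 normalized counts in WT and 42.5 ± 9.63 in the labelled *Mgp*-KO (log2 difference -0.17, limma adjusted p = 0.869). *Bmp8b*, known for raising thermogenesis in brown fat, had 17 reads in all and *Bmp8a* 5. Both were thus at the detection limit along with *Bmp7*.

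Among the rest of the pathway, 0 of 13 tested receptors and SMADs, 0 of 12 antagonists and modulators, 0 of 9 targets of BMP-SMAD signalling and 0 of 7 genes of tolloid and proprotein processing were called in limma. Their median log2 differences were 0.134, -0.127, 0.257 and -0.118. Within replicates 1 to 3 these medians were 0.255, 0.000979, -0.167 and 0.160, and within replicates 4 and 5 they were 0.249, 0.230, 0.929 and 0.0421, so that only that of receptors and SMADs kept its sign throughout. With the set term limma (2.36% of genes called) called 1 of these genes and none of the ligands. It was *Id4*, an inhibitor of DNA binding and target of BMP signalling, at 37.9 ± 7.05 normalized counts in WT and 97.8 ± 29.4 in the labelled *Mgp*-KO (log2 difference 1.31, limma adjusted p = 0.0647 without and 0.0162 with the set term). The sets gave 1.6 (1 to 3) and 0.89 (4 and 5). DESeq2 called *Id4* (adjusted p = 0.000425) and 1 more of these genes, *Pcsk5*, a proprotein convertase, at 245 ± 56.9 and 1053 ± 850 (adjusted p = 0.0163), and with its set term also *Bmper* (adjusted p = 0.0310). The limma difference of *Pcsk5* was 2.49 for replicates 1 to 3 but 0.06 for replicates 4 and 5. On replicates 1 to 3 alone (3.54% of genes called) limma called *Id4* (adjusted p = 0.0192), *Pcsk5* (adjusted p = 0.00854) and *Smad6*, an inhibitory SMAD, at -1.05 (adjusted p = 0.0296), for which replicates 4 and 5 gave 0.20. Besides *Id4*, the groups of 3 pathway genes did not overlap, against 3.5% of all tested genes. *Bambi*, a decoy receptor, was at 38.6 ± 4.43 and 62.5 ± 13.3, and *Pcolce2*, an enhancer of procollagen cleavage, at 71.2 ± 15.2 and 110.0 ± 17.9. *Bmper*, a BMP-binding modulator, was at 125 ± 13.6 and 86.4 ± 11.3. Limma adjusted p of these 3 was 0.298 to 0.306 without the set term and 0.086 to 0.122 with it. Their directions were the same in both sets, which groups that do not overlap must give.

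The genes whose profile over the 10 libraries was most like that of each member were named by the mean absolute difference of standardized log2 values, which has a median of 1.03 to 1.10 over all genes. For *Bmp4* they were *Fam124a* (0.280), *Smarcd3* (0.293) and *Adm* (0.389). For *Gdf5* they included *Mgst3* (0.157) and *Tpd52l1* (0.182). For *Bmp6* they were *Ppl* (0.103), *Neu1* (0.185) and *Spout1* (0.209), and for *Gdf10* *Tnfrsf1a* (0.178), *C330013E15Rik* (0.231) and *4930481B07Rik* (0.250). For *Bmp1* they were *Col6a3* (0.227), *Selenon* (0.259) and *Nrp2* (0.263). The nearest genes of *Bmp2*, *Bmp3* and *Bmp5* were *Pnpt1* (0.246), *Gmpr* (0.285) and *Itgb1* (0.299). No gene was as close to *Bmp4* as *Ppl* was to *Bmp6*.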

How the data were processed

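RNA of interscapular brown adipose tissue of 5 WT and 5 labelled *Mgp*-KO mice was sequenced by the authors with single reads, mapped to mm10 with STAR 2.5.3a and counted per gene with its gene counting option. The deposited normalized counts are a non-negative signal, made by the authors by dividing counts by DESeq2 1.38.3 size factors. The annotation release and the strand setting are not given in the sources used here. In every library all values (100%, tolerance 0.01 reads) were whole reads once divided by the step of the library, 0.715 to 1.73 normalized counts per read. Intervals and the floor of 3 reads cover only counting error, because PCR copies of a molecule were not marked.

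Groups came from the labels. Genotypes were compared in R 4.3.3 by limma 3.58.1 (trended eBayes), using log2(normalized count + 1) of the 13714 genes averaging 10 or more, with Benjamini-Hochberg adjustment over all of them and a threshold of 0.05. A fold change on that scale understates the change of low genes. Genes under the filter, single values and, of the tested ligands, *Bmp4* were compared by two-sided exact permutation tests. With 5 against 5 libraries the smallest p is 0.00794, and with 3 against 3 it is 0.1. The sets (replicates 1 to 3, and 4 and 5) were compared with genotype in the model. Alternatives were other pseudocounts (0.5 and 10), no filter or a mean of at least 50, no trend, equal upper quartiles, a set term, a replicate block, single sets, edgeR 4.0.16 with TMM, DESeq2 1.42.0 and leaving out libraries. Levels per kb used exon lengths of GENCODE M21 (GRCm38), and promoters came from RefSeq. Named are the 10 ligands, *Mgp*, pathway genes called in limma without or with the set term, and the 3 genes nearest in profile to each tested ligand (for *Bmp2*, *Bmp3* and *Bmp5* only the nearest is printed). Of those of *Gdf5*, 1 is not reported here. *Xist* and *Gdf11*, *Bmp8a* and *Bmp8b* were named outside that rule, after their values were seen, and so were *Bambi*, *Bmper*, *Pcolce2*, *Pcsk5* and *Smad6*. The ligands and lists were chosen with earlier results of these data known.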

Additional observations from a re-analysis of the deposited data

Results flagged for a closer look

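*Gdf6* in *Mgp*-KO 4 was at 0.0 normalized counts, apart from the other libraries labelled *Mgp*-KO, which were at 3.01 to 4.11. Its gap to the nearest of them was 0.734 of the range of the group, above Dixon's limit of 0.710 for 5 values. *Mgp*-KO 4 is the library with the fewest reads, and a count of 0 there allows up to 4.86 normalized counts, a range in which the other libraries of the group lie too. Chance flags about 1 in 20 such groups, and 20 groups of the ligand genes were checked.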

How the results depend on the processing

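No gene of the ligand group was called between the genotypes in limma under any alternative. Of the 25 settings, 22 called 0 members, leaving out each library in turn (0 to 0) included, and 1 was called by DESeq2 (*Bmp4*), by DESeq2 with the set term (*Bmp4*) and by DESeq2 within replicates 1 to 3 (*Bmp1*, -0.76). The count over all genes was far less steady. Against 9 it was 29 with a pseudocount of 10, 1 without a filter, 15 with a mean of at least 50, 25 with equal upper quartiles, 3 in edgeR, 374 in DESeq2, 324 and 1152 with a set term in limma and DESeq2, 486 and 1348 within replicates 1 to 3 in limma and DESeq2, 0 within replicates 4 and 5 (limma, 855 with an unadjusted p under 0.05), 267 without *Mgp*-KO 4 and 5, and 0 to 93 without single libraries. The cause was not tested. Replicate numbers were checked for pairing. Deviations from group means of same-numbered libraries correlated by 0.0559 to 0.527 (mean 0.389), against a mean of 0.416 for other numbers of the same set, and by -0.398 to 0.223 within the sets. Since 1 pair was under 0.1 and 2 of 5 WT libraries were closest to their own number, the numbers were not taken as pairs. With the replicate block 270 genes and 0 members were called.

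Within replicates 1 to 3 *Bmp5* turned to 0.22 (0.26 in DESeq2), and without *Mgp*-KO 4 and 5 to 0.13. Within replicates 4 and 5 *Bmp1* turned to 0.34, *Bmp3* to -0.77 and *Gdf5* to -0.19 on the log2 scale. The mean count of *Gdf5* in that set was still higher in the labelled *Mgp*-KO (339 against 210 in WT). Leaving out single libraries gave -0.31 to 0.02 for *Bmp5* and -0.14 to 0.45 for *Bmp3*. For *Bmp1* it gave -0.52 to -0.17, for *Bmp2* -0.31 to -0.08 and for *Gdf10* 0.10 to 0.49. Between the sets 1 member was called (*Gdf10*), 2 with equal upper quartiles, where *Gdf5* joined, and 1 to 2 without single libraries. Directions turned for *Bmp1* (-0.12) and *Bmp4* (-0.0905) with equal upper quartiles, and for *Bmp2* in edgeR (0.0013) and DESeq2 (0.015). Without single libraries *Bmp1* ran from -0.22 to 0.25, *Bmp2* from -0.22 to 0.15, *Bmp3* from -0.70 to 0.0255, *Bmp4* from -0.12 to 0.23, *Bmp6* from -0.17 to 0.13 and *Gdf5* from -2.20 to -0.75. Depth limits *Bmp4*, *Bmp3*, *Bmp7* and *Gdf6* most, and 3 of the 8 tested genes (*Bmp2*, *Bmp3* and *Bmp4*) have means under 50 and no value under that filter.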
